A study of Marchantia polymorpha with 18 samples.

Results

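The V chromosome is the male sex chromosome of the liverwort Marchantia polymorpha. All 154 identifiers of the read count table that begin with MpVg were taken, out of 19355 in the table, and the 43 with at least 20 counts summed over the 18 libraries are described. The rule used the identifiers and these sums. Messenger RNA of thallus, the flat green plant body, was sequenced to study how MpGLR, a glutamate receptor-like gene, bears on expression after wounding. The groups were wild type (WT, with no accession named in the labels) and Mpglr-9, a CRISPR deletion mutant and the only mutant line in the series. Plants of both genotypes had grown on soil for 28 days, and each genotype was sampled as thallus of intact plants, as lobes crushed with serrated forceps (damaged) and as adjacent untouched lobes of the wounded plants (systemic), 4 h after wounding. Each of the 6 groups held 3 replicates, and each replicate pooled 9 plants.

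Marchantia spends most of its life as a haploid plant, and its sex goes with the chromosome it carries, U in females and V in males. A feminizing gene on the U chromosome, MpBPCU, has a counterpart on the V chromosome. V chromosomes of this species hold both genes with a counterpart on U, many of them active throughout the plant, and genes without one, of which many are known for activity in the male sexual organs and motile sperm. The names table used here, of assembly MpTak2_v7.1, covers a female genome. It pairs 0 of the 154 V identifiers with a name, so no role is given for a single member, and no sequence, length or position of these genes was at hand. Levels in CPM, read counts relative to the size of the library, therefore show how a gene differed between libraries, and an order of genes by CPM is an order of reads, not of transcript levels.

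Libraries held 17312755 to 30690205 counts. A gene with no read could have had up to 3 counts, which is 0.0974 to 0.178 CPM, a limit that covers counting error only. In a principal component analysis the first component (68.7% of the variance) set the 6 damaged libraries apart from the other 12, and the libraries numbered 3 had the highest values on the second (9.73%) in every group. Among markers of male reproductive cells, the protamine gene MpPRM had 5 counts in all libraries together and MpLC7 had 3. MpTUA5 stayed between 0.130 and 0.533 CPM and MpDUO1, a regulator of sperm differentiation, between 0.312 and 2.25 CPM. The other 3 of the 7 listed genes, MpMID, MpCEN1 and MpRKD, had means of 14.5, 53.5 and 234 CPM. Whether these 3 are particular to male reproductive cells was not tested, so their levels give no measure of such cells. The 3 markers of green thallus, MpRBCS, MpCHLD and MpCHLI1/2-like, had means of 92.4, 182 and 298 CPM.

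Most V identifiers had no count in thallus. A count of 0 need not mean no read, since how reads of overlapping genes or near-identical copies were counted is not known here. Of the 154, 94 (61.0%) had a count of 0 in all 18 libraries, against 10.2% of the 19058 identifiers on the autosomes. Another 17 had 1 to 19 counts, 100 counts together, with no more than 4 in any library. The 43 described genes made up 27.9% of the V identifiers, while 78.6% of the autosomal identifiers reached 20 counts, and on single autosomes that share ran from 75.1% on chromosome 5 to 84.8% on chromosome 1. Just under the limit stood MpVg00160 with 17 counts and MpVg00390 and MpVg00925 with 15 each. Just above it stood MpVg00370 with 32 and MpVg00105 with 36 counts. In the order of their numbers the identifiers under and above the limit of 20 counts were interleaved. The 43 fell into 27 runs of at most 4 neighbours, and the longest stretch under the limit held 12 identifiers.

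Counted in reads and not per length, 10 of the 43 genes had a mean of at least 100 CPM over the 18 libraries, 15 lay between 10 and 100 CPM, 9 between 1 and 10 CPM and 9 under 1 CPM. In order of reads the first 12 were MpVg01240, MpVg00970, MpVg00980, MpVg00760, MpVg00510, MpVg00440, MpVg00730, MpVg01160, MpVg01150, MpVg00710, MpVg00300 and MpVg00600. MpVg01240 alone took 37.5% of all 1635395 V counts. All V genes together held 0.310% to 0.495% of a library's counts.

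**Figure D1:**
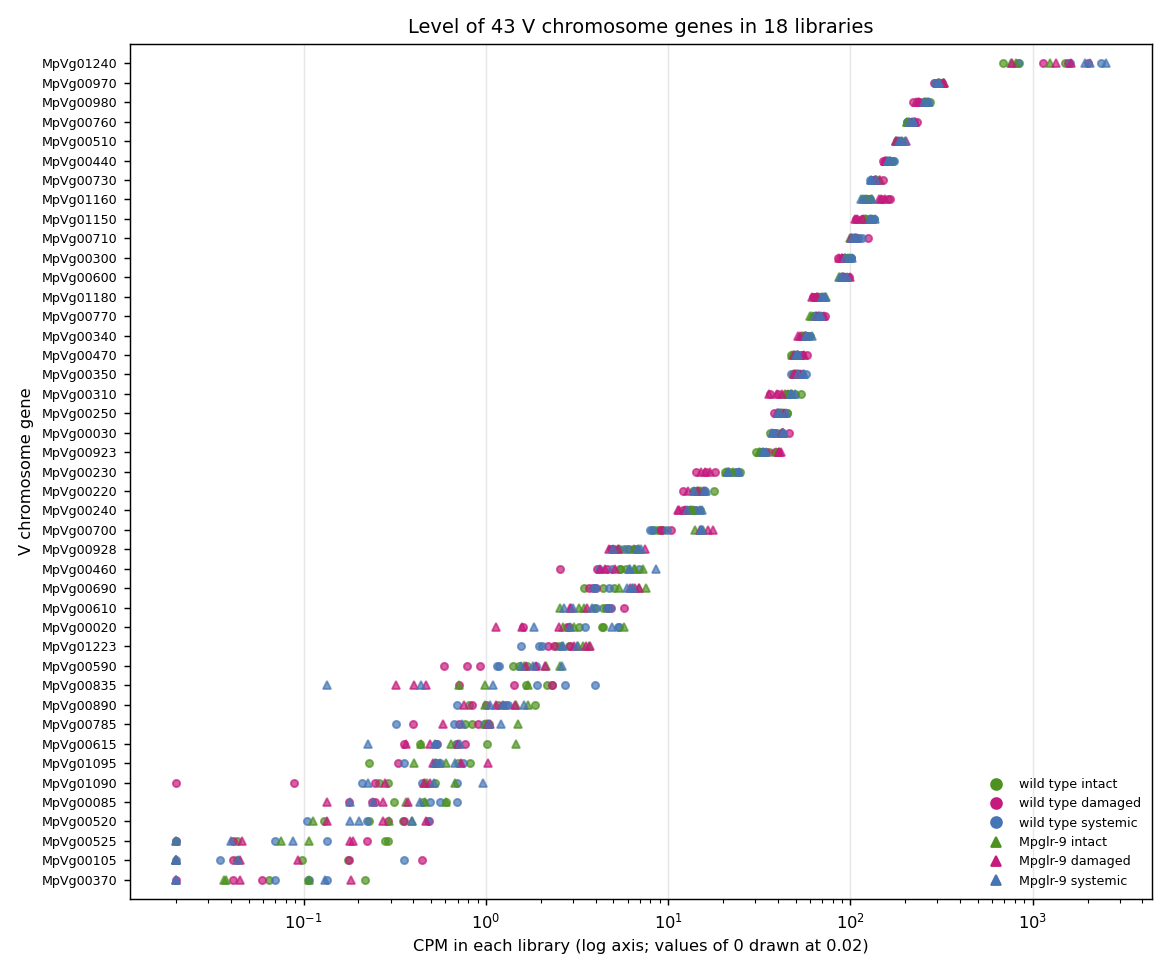
CPM of the 43 described V chromosome genes in each of the 18 libraries, on a log axis, with genes ordered by their mean and symbols for genotype and condition. Libraries lie close together for most genes above 10 CPM, with MpVg01240, MpVg00700 and MpVg00230 as exceptions, and spread widely below 1 CPM, where single counts decide the value.

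Without MpVg01240 the summed level of the V genes was nearly the same in every library. It ran from 2316 to 2393 CPM, a highest library only 1.03 times the lowest, with a coefficient of variation of 1.16% over the 18 libraries. Group means were 2354 ± 33.7 CPM in intact, 2338 ± 11.7 in damaged and 2362 ± 25.7 in systemic WT thallus (SD, n = 3). In Mpglr-9 they were 2356 ± 26.5, 2349 ± 38.8 and 2389 ± 3.40 CPM (SD, n = 3). The groups overlapped, apart from systemic Mpglr-9, whose lowest library (2386 CPM) lay above every WT library and every intact Mpglr-9 library. MpVg01240 was set aside after its values were seen, and no like sum of autosomal genes was compared. Of the 25 V genes with a mean of at least 10 CPM, 22 (88.0%) had a highest library less than 1.5 times their lowest, beside 51.2% of 9383 autosomal genes of that level. The ratio was 1.13 for MpVg00510, which ranged from 178 to 201 CPM, and likewise 1.13 for MpVg00760 and MpVg00970. It exceeded 1.5 for MpVg00230 (1.74), MpVg00700 (2.20) and MpVg01240 (3.68). MpVg00510 was the only member whose library numbered 3 was the highest in all 6 groups.

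MpVg01240 went against this evenness. Its values were 686, 836 and 1507 CPM in intact WT plants, 1145, 2001 and 1563 CPM in damaged lobes and 1602, 832 and 2377 CPM in systemic lobes (replicates 1 to 3). In Mpglr-9 they were 814, 1243 and 762 CPM in intact plants, 1335, 1631 and 769 CPM in damaged lobes and 2523, 2065 and 1947 CPM in systemic lobes. The spread inside groups was as wide as the range between most of them, and only systemic Mpglr-9 lay wholly above its intact group. The standard deviation inside groups was 0.52 on the log2 scale, larger than that of all of the 500 tested genes nearest in level. Depending on the library this gene took 22.5% to 51.3% of the V counts. The systemic change, averaged over the genotypes, was 0.94 ± 0.29 (log2, SE) and was not called (adjusted p = 0.721, edgeR quasi-likelihood test), nor was the change in damaged lobes of 0.52 ± 0.29 (adjusted p = 0.130).

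**Figure D2:**
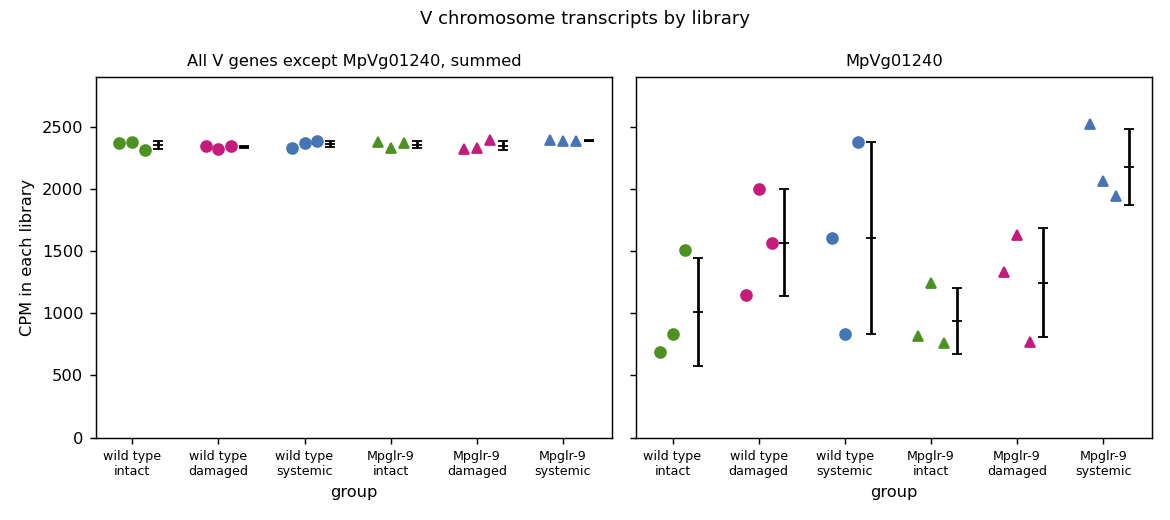
CPM per library, by group, of all V chromosome genes except MpVg01240 summed (left) and of MpVg01240 (right), with the mean ± SD of 3 libraries beside the points. The sum stays between 2316 and 2393 CPM in all 18 libraries, whereas MpVg01240 ranges from 686 to 2523 CPM.

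The comparison of damaged with intact thallus asked how the V genes respond locally to crushing. It was made with both genotypes averaged, 6 libraries against 6, in a model fitted to all genes. The filter on low counts left 13450 genes, among them 40 of the 43; MpVg00105, MpVg00370 and MpVg00525 were not tested. Of the 40, 4 rose and 12 fell at an adjusted p under 0.05, and 24 were not called. That is 40% of the tested V genes, beside 66.3% of all tested genes (32.6% higher and 33.7% lower), so crushing was followed by a call in a smaller share of V genes than of genes at large. The changes were also small, with a median size of 0.12 on the log2 scale, beside 0.32 for all tested genes, and 10 of the 16 called changes were under 0.35. The median V change was -0.06 and that of all tested genes -0.03. Of the 25 V genes of at least 10 CPM, 11 (44%) were called, beside 73.6% of autosomal genes of that level, and 0 were called with a change beyond 0.5, beside 27.8%. Of the 15 under 10 CPM, 5 (33.3%) were called, beside 49.6% of autosomal genes of that level. All 5 changed by more than 0.5. Genes called with such a change were thus 33.3% of these V genes, beside 40.4% of all autosomal genes of that level. All of this is relative to TMM scaling: with upper-quartile scaling the median of all genes was -0.12, 1 V gene rose and 17 fell, and 37.1% of all calls were higher, against 49.1% with TMM.

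Among the 4 that rose, MpVg01160 rose most. It measured 128, 120 and 118 CPM in intact and 165, 149 and 161 CPM in damaged WT thallus, and 129, 124 and 117 CPM in intact and 154, 148 and 144 CPM in damaged Mpglr-9 thallus. Every damaged library lay above every intact one, and the log2 fold change was 0.32 ± 0.04 (SE, adjusted p = 9.56e-07, edgeR). It was the single V gene called higher with upper-quartile scaling as well. MpVg00760 rose from a range of 205 to 216 (median 208) to one of 216 to 231 CPM (median 225), also without overlap, by 0.10 ± 0.03 on the log2 scale (SE). MpVg00923 rose by 0.22 ± 0.06 and MpVg00770 by 0.11 ± 0.04 (SE), and for both the intact and damaged libraries overlapped. These 3 changes were not called with upper-quartile scaling (log2 fold changes of 0.01, 0.13 and 0.01 for MpVg00760, MpVg00923 and MpVg00770), and MpVg00770 was also lost without WT damaged replicate 1 (adjusted p = 0.0584) or Mpglr-9 damaged replicate 3 (adjusted p = 0.0646). MpVg00760 was also lost without all libraries numbered 3 (adjusted p = 0.0648).

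Of the 12 V genes that fell, 6 fell by more than 0.4 on the log2 scale. The best measured of them was MpVg00230, with 24.9, 22.0 and 20.5 CPM in intact and 14.3, 17.98 and 16.1 CPM in damaged WT thallus, and 20.7, 22.8 and 21.7 CPM in intact and 16.9, 15.1 and 16.0 CPM in damaged Mpglr-9 thallus. No damaged library reached an intact one, and the gene fell by 0.46 on the log2 scale (SE 0.06, adjusted p = 5.44e-06, edgeR). MpVg00460 fell by 0.56 (SE 0.15), from 5.57 ± 0.270 to 3.75 ± 1.08 CPM in WT and from 6.79 ± 0.438 to 4.60 ± 0.450 CPM in Mpglr-9 (SD, n = 3), again without overlap. The other 4 were genes of few counts, for which 1 library weighs heavily. MpVg00020 fell by 0.92 (SE 0.27), from 4.01 ± 0.651 to 2.42 ± 0.707 CPM in WT and from 3.81 ± 1.67 to 1.75 ± 0.707 CPM in Mpglr-9 (SD, n = 3). MpVg00085 fell by 0.95 (SE 0.32) at levels of at most 0.606 CPM in these 12 libraries, and MpVg00590 fell by 0.57 (SE 0.19). MpVg00835 fell by 0.98 (SE 0.37), a call that was lost without WT intact replicate 2 (adjusted p = 0.0509), WT damaged replicate 3 (0.0581) or Mpglr-9 intact replicate 1 (0.0918), damaged replicate 1 (0.0635) or damaged replicate 2 (0.0513).

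The other 6 genes that fell were abundant and fell little. MpVg00310 fell by 0.27 on the log2 scale (SE 0.05), from a median of 46.8 CPM in intact to 39.7 CPM in damaged thallus. MpVg01150 fell by 0.17 (SE 0.04), from 120 to 134 CPM in the intact libraries to 106 to 118 CPM in the damaged ones, without overlap. MpVg00980 fell by 0.16 (SE 0.03) and MpVg00300 by 0.11 (SE 0.03), both without overlap as well. MpVg01180 fell by 0.12 (SE 0.03) and MpVg00440 by 0.08 (SE 0.03), and for these the groups overlapped. The fall of MpVg00440 was not called without WT intact replicate 1 (adjusted p = 0.0882) or 3 (0.0518), without Mpglr-9 intact replicate 1 (0.0748) or 3 (0.0670), without all libraries numbered 3 (0.0820), or when only the 4 groups compared were fitted (0.0628). Over all 43 described genes, the 6 damaged libraries lay wholly above the 6 intact ones for 2 and wholly below for 5, which is 7 of 43, beside 41.6% of all genes with at least 20 counts (21.3% above and 20.3% below).

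Markers of other cells moved in the same comparison. In summed level the 27 genes of dividing cells ranged from 1423 to 1549 CPM in intact and from 901 to 1123 CPM in damaged WT lobes, and from 1430 to 1496 CPM in intact and from 939 to 1112 CPM in damaged Mpglr-9 lobes. Of the 25 tested, 23 fell and 1 rose with genotypes averaged, beside 33.7% and 32.6% of all tested genes. MpH2B.5 had no count. The 3 green thallus markers fell, from a sum of 652 to 703 CPM in intact to 289 to 398 CPM in damaged WT lobes and from 629 to 720 to 278 to 422 CPM in Mpglr-9. Of the 5 tested genes listed as markers of male reproductive cells 0 were called, beside 66.3% of all tested genes. The sum over that list lay between 285 and 321 CPM in all intact and damaged libraries. MpRKD and MpCEN1, with means of 234 and 53.5 CPM, made up most of that sum. It therefore says little of the other markers in the list, such as MpPRM, MpLC7, MpTUA5 and MpDUO1. In such bulk samples fewer cells of a type and less RNA per cell cannot be told apart, and the part of these shifts in the V gene changes was not tested.

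In WT alone 1 V gene rose and 8 fell, beside 27.7% and 27.8% of all tested genes (55.5% called). In Mpglr-9 alone 4 rose and 8 fell, beside 27.6% and 27.2% of all tested genes (54.8% called). Called in both were 6 genes: MpVg01160, higher, and MpVg00230, MpVg00310, MpVg00460, MpVg00980 and MpVg01150, lower. The share of all tested genes called in both genotypes was not counted. The Mpglr-9 count rested on few libraries, since 4 genes were called without damaged replicate 1 and 7 without intact replicate 1. MpVg00460 was lost in WT without any of the intact replicates (adjusted p = 0.0512 to 0.0820) or damaged replicate 1 (0.155), and in Mpglr-9 without intact replicate 3 (0.0798), damaged replicate 1 (0.0728) or damaged replicate 2 (0.0922). In Mpglr-9 MpVg00310 was lost without intact (adjusted p = 0.0757) or damaged replicate 1 (0.0971), MpVg00980 without intact replicate 1 (0.0518), and MpVg01150 without intact replicate 3 (0.0815) or damaged replicate 1 (0.0661). Whether the response differed between the genotypes was asked by the interaction, in which 0 V genes were called, with 0 of the 40 at an unadjusted p under 0.05. Over all genes it called 0, with 335 (2.49%) at that unadjusted p, and DESeq2 and limma-voom called 0 as well. For the 25 V genes of at least 10 CPM the fitted difference, Mpglr-9 minus WT, ran from -0.23 to 0.09 on the log2 scale, and for the 15 under that level from -1.06 for MpVg00835 to 1.13 for MpVg01090. The smallest interaction p was that of MpVg00590. This gene measured 1.40, 1.69 and 1.53 CPM in intact and 0.592, 0.783 and 0.933 CPM in damaged WT lobes, and 2.56, 1.62 and 2.13 CPM in intact and 1.87, 1.66 and 2.10 CPM in damaged Mpglr-9 lobes. The WT groups did not overlap and the Mpglr-9 groups did, and the interaction was 0.82 ± 0.39 (SE, adjusted p = 1.00, edgeR), which does not pass.

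**Figure D3:**
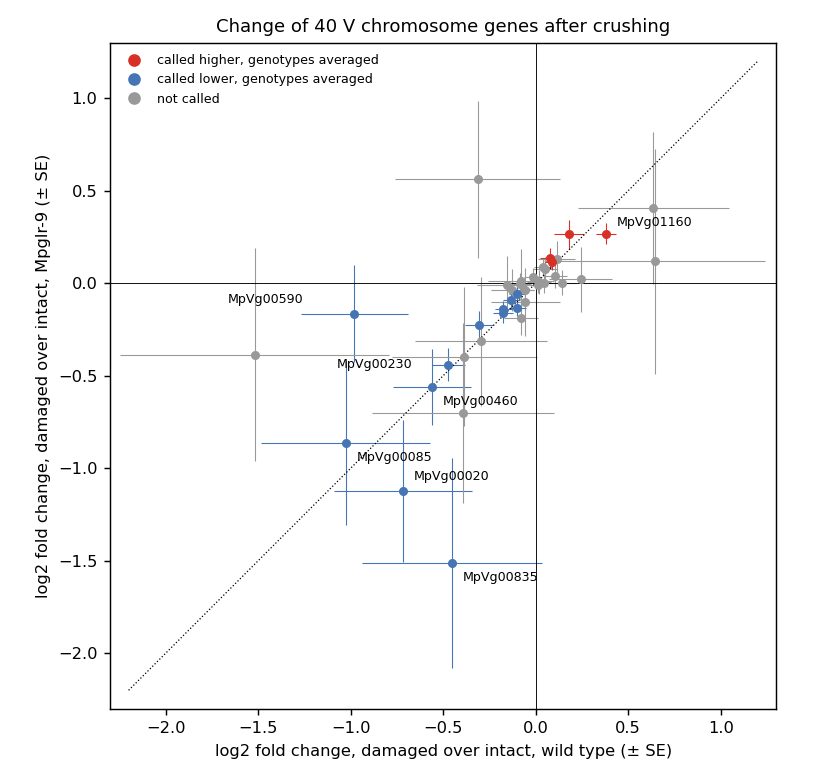
Log2 fold change of damaged over intact thallus for the 40 tested V chromosome genes, in WT (horizontal) and Mpglr-9 (vertical), with standard errors from the edgeR model; colours show the call with genotypes averaged and the dotted line marks equal change. Most genes lie within 0.5 of 0 in both genotypes, and those far from 0 have wide errors.

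The comparison of untouched lobes of wounded plants with intact plants asked for a systemic response. With both genotypes averaged, 0 of the 40 V genes and 0 of all 13450 tested genes (0%) were called with edgeR. At an unadjusted p under 0.05 stood 2 V genes, MpVg01240 and MpVg01223, and 773 genes in all (5.75%). DESeq2 and limma-voom called 0 V genes too. For MpVg01223 the systemic change was -0.39 ± 0.12 on the log2 scale (SE), with an adjusted p of 0.720. Its values were 2.87, 2.43 and 2.56 CPM in intact and 1.95, 2.03 and 1.56 CPM in systemic WT lobes, and 3.20, 3.39 and 3.67 CPM in intact and 2.66, 3.16 and 2.63 CPM in systemic Mpglr-9 lobes. Inside each genotype the systemic libraries lay below the intact ones, but the share of all genes that separated in this way was not counted. The median V change was 0.01 on the log2 scale and the median of all genes 0.00.

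Mpglr-9 was compared with WT over the 3 conditions, 9 libraries against 9, to ask for differences between the genotypes. Systemic lobes came from wounded plants, so systemic and damaged libraries may share plants, and the model held no term for this. Of the 40 V genes 3 were higher and 2 lower in Mpglr-9, which is 12.5%, beside 0.312% of all tested genes (0.238% higher and 0.0743% lower). V genes made up 5 of the 42 genes called in the whole table. Inside intact, damaged or systemic thallus alone, MpVg00700 was the only V gene called. On the autosomes 35 of 13371 genes (0.262%) were called, and no autosome had more than the 0.555% of chromosome 5. Identifiers that begin with Mpzg, counted with neither the autosomes nor the V chromosome, had 2 of 39 called (5.13%). The other 35 V genes were not called, and the median V difference was 0.00. Since 1 mutant line was compared with 1 wild type, the deletion cannot be told apart from any other difference between these lines.

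MpVg00700 held the third smallest p of all 13450 genes. It ranged from 7.98 to 10.4 CPM (median 9.11) in the 9 WT libraries and from 14.1 to 17.6 CPM (median 15.2) in the 9 Mpglr-9 libraries, with a wide gap between them. The difference was 0.78 ± 0.06 on the log2 scale, or 1.72-fold (SE, adjusted p = 4.35e-07, edgeR). It was called in each condition alone, at 0.75 ± 0.10 in intact, 0.77 ± 0.10 in damaged and 0.82 ± 0.10 in systemic thallus (SE, adjusted p = 0.00244, 0.00209 and 0.000968), where 0.0223%, 0.0297% and 0.052% of all genes were called. The neighbouring number MpVg00690 ranged from 3.44 to 5.07 CPM (median 3.97) in WT and from 5.35 to 7.51 CPM (median 6.39) in Mpglr-9. It too was higher in every mutant library than in any WT library, by 0.65 ± 0.09 (SE, adjusted p = 0.00182). Both calls held under all 26 alternatives tried. Libraries of all 9 mutant and all 9 wild-type samples failed to overlap for 0.0729% of all genes with at least 20 counts (0.0597% higher and 0.0133% lower in Mpglr-9).

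MpVg00610 went the other way. Its 9 WT libraries ranged from 3.94 to 5.75 CPM (median 4.60) and its 9 Mpglr-9 libraries from 2.57 to 3.85 CPM (median 3.02), without overlap, a difference of -0.55 ± 0.10 (log2, SE, adjusted p = 0.0186). It was not called without WT systemic replicate 2 (adjusted p = 0.0543), Mpglr-9 systemic replicate 1 (0.0547) or replicate 3 (0.0514), or without all libraries numbered 3 (0.173). MpVg00835 had the largest difference of the 40 tested V genes, -1.69 ± 0.30 (log2, SE, adjusted p = 0.0186). It ranged from 0.711 to 3.95 CPM (median 2.17) in WT and from 0.135 to 1.71 CPM (median 0.467) in Mpglr-9, and these ranges overlapped. By condition its WT and Mpglr-9 groups overlapped in intact plants and not in damaged or systemic lobes. Between intact and damaged thallus the interaction was -1.06 ± 0.74 (log2, SE) and was not called. No interaction with the systemic condition was tested. The genotype call of MpVg00835 was lost without WT intact (adjusted p = 0.0516), WT damaged (0.0531), WT systemic (0.0543), Mpglr-9 damaged (0.0567) or Mpglr-9 systemic replicate 2 (0.0557). MpVg01223 was higher in Mpglr-9 by 0.49 ± 0.10 (log2, SE, adjusted p = 0.0487), at 2.63 to 3.75 CPM (median 3.20) against 1.56 to 2.89 CPM (median 2.37). This call, close to the limit, was lost under 21 of 26 alternatives, with adjusted p up to 0.179, and of the 18 that left out a single library it held only without WT damaged replicate 3.

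The called genes lay among V genes that were not called. Between MpVg00590 and MpVg00710 the described genes in order of number were MpVg00590, higher in Mpglr-9 by 0.74 ± 0.16 but not called (log2, SE, adjusted p = 0.0552), MpVg00600, not called, MpVg00610, lower, MpVg00615, not called, MpVg00690 and MpVg00700, higher, and MpVg00710, not called. MpVg00590 was called by DESeq2 and in edgeR with a replicate block. The 12 V genes first in order of reads were all uncalled in this comparison, and among the 25 of at least 10 CPM the differences other than that of MpVg00700 were not called. Of the 3 untested genes, MpVg00105 had 32 counts in the 9 WT libraries and 4 in the 9 Mpglr-9 libraries, and with no filter on counts its difference was -3.13 ± 0.88 (log2, SE, adjusted p = 0.286). MpVg00525 had 29 and 17 counts and MpVg00370 19 and 13 counts. The 5 tested genes listed as markers of male reproductive cells and the 25 of dividing cells were not called between the genotypes, beside 0.312% of all tested genes called.

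**Figure D4:**
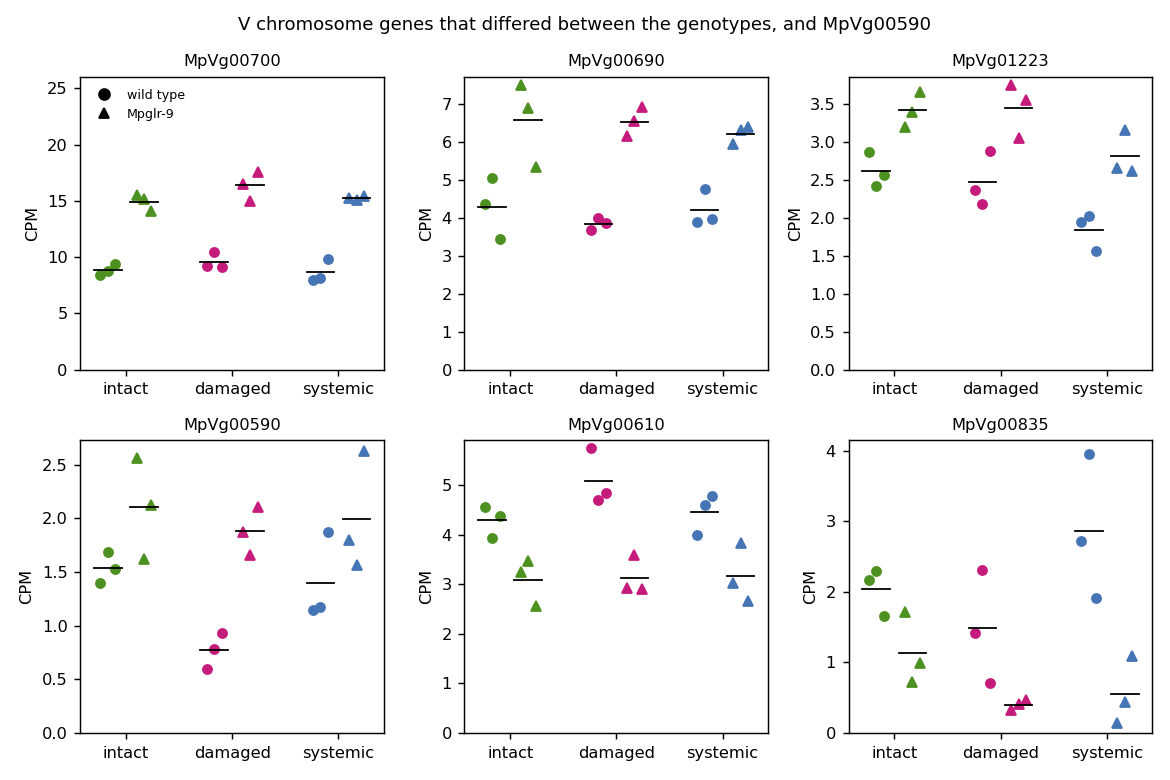
CPM in each library of the 5 V chromosome genes called between Mpglr-9 (triangles) and WT (circles), and of MpVg00590, by condition, with group means as lines and each vertical axis starting at 0. MpVg00700, MpVg00690 and MpVg00610 separate all 9 mutant from all 9 wild-type libraries.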

How the data were processed

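Per the labels' protocols, libraries of poly-A selected RNA (NEBNext Ultra RNA kit) were sequenced as paired reads of 150 bases. A table of unnormalised read counts, with 19355 gene identifiers and 18 libraries, was deposited by the authors, who used HISAT2 and HTSeq per the submitters' processing notes. Tool versions, strand setting, genome build and annotation were not given in the sources used here. Without the strand setting and sequences, reads of overlapping genes, or shared between V genes and near-identical copies, could not be separated. Totals of 17312755 to 30690205 counts set the precision.

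Counts were analysed in edgeR 4.0.16 (R 4.3.3): filterByExpr by group (13450 genes), TMM scaling, and a robust quasi-likelihood model with 6 group means over all 18 libraries. Tests were two-sided with Benjamini-Hochberg adjustment over all tested genes, and calls required an adjusted p below 0.05. The SE is the log2 fold change divided by the square root of F. The model was run on simulated data with the same spread for every gene and no effect of replicate number. These settings differ from the data here, so the simulation does not gauge the calls reported. Members, marker lists and the naming rule (called genes, the 12 with the highest CPM, and genes in which 1 replicate number stood apart in every group) were chosen with earlier results of these data known; genes near the count limit, MpVg00590 and the untested genes were added after their values were seen. Marker symbols were matched by locus number, which 17384 of 19355 identifiers shared with the names table. Alternatives were DESeq2 1.42.0, limma-voom (limma 3.58.1), other scalings and filters, the groups compared alone, a replicate block, and libraries left out. The series' design text describes the replicates as independent, so p-values measure the spread between pools of plants inside a group. Damaged and systemic libraries may share plants, which the model did not take into account.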

Additional observations from a re-analysis of the deposited data

How the results depend on the processing

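With genotypes averaged, the count of V genes called after crushing stayed between 14 and 18, against 16, under every alternative, and with DESeq2 or limma-voom the same 16 genes were called. For WT alone the count ran from 7 to 13, against 9. For Mpglr-9 alone it ran from 8 to 13, against 12, with all libraries, and from 4 to 10 when single libraries were left out. Between the genotypes 4 to 6 V genes were called with all libraries, against 5, and 2 to 6 when libraries were left out, the lowest being 2 without WT systemic replicate 2. Without all libraries numbered 3, an alternative chosen after seeing the data, 3 were called. The systemic comparison and the interaction called 0 V genes under every alternative run. No called V gene changed direction. With the replicate block 16 V genes were called after crushing, 11 in WT, 12 in Mpglr-9 and 6 between the genotypes, where MpVg00590 was gained; over all genes the last count rose from 42 to 84, and DESeq2 gave 112. Deviations of libraries with the same number correlated at 0.02 to 0.68, all of them positive. A pair under 0.1 stood in every set except WT against Mpglr-9 in intact and in damaged thallus. In intact thallus these pairs reached 0.31, 0.49 and 0.68. The libraries numbered 3 were also highest on the second component in every group. The main model held no term for the replicate number, so it took no account of anything that libraries of 1 number share. Limits of 1, 10 or 100 summed counts would describe 60, 47 or 40 V genes. Depth limits the genes under 1 CPM, where a value rests on few reads.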

Other observations

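Of the 13449 other tested genes, Mp6g09310, a gene without a symbol, had the pattern most like that of MpVg01240, with a Pearson r of 0.983 on log2 CPM over the 18 libraries; this gene was chosen after its values were seen, and the points share their libraries. The ratio of their CPM, MpVg01240 over Mp6g09310, ranged from 6.50 to 8.52 over the 18 libraries; without gene lengths it gives no ratio of transcript levels. The next genes in likeness were Mp4g03650 (r = 0.915) and Mp3g13560 (r = 0.867), at means of 1.63 and 1.73 CPM. Whether these genes share sequence with MpVg01240 was not tested.

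Identifiers whose number does not end in 0 made up 25 of the 154 V identifiers, and 10 of these were among the 43 described, against 33 of the 129 that end in 0. MpVg00835 and MpVg01223, called between the genotypes, and MpVg00105, with 32 counts in WT and 4 in Mpglr-9, were among the 25. The other V genes called between the genotypes, MpVg00610, MpVg00690 and MpVg00700, have numbers that end in 0.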
